A study of Mus musculus with 10 samples.

Results

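The Neat1 and Malat1 locus of chromosome 19 was described here through the open chromatin that covers it. Its members were the DNase I hypersensitive (DHS) sites overlapping chr19:5770000-5851000 of the mm9 mouse genome, with the footprints inside them: 21 sites of 129028 in all, holding 531 of 329076 footprints. Malat1 was taken to lie at chr19:5795700-5802700 and Neat1 at chr19:5824700-5845500, positions that are approximate. The locus was chosen by position, and was selected on the footprint numbers and site widths of these same lists, so those values are given as a description. The cells were 3T3-L1, a mouse fibroblast line that can be turned into fat cells. Nuclei were taken 4 h after cultures 2 days past confluence were given insulin at 1 µg/mL, dexamethasone (a glucocorticoid) at 1 µM, 3-isobutyl-1-methylxanthine (which raises cyclic AMP) at 0.5 mM and FCS at 10%. The 2 DNase samples were runs of 1 library that the authors pooled with earlier reads, so the lists hold no replicates and no untreated control, and the read depth is unknown. The other 8 samples, RNA at 0 h and 4 h from cells given lentivirus with shRNA to C/EBPβ or to a scrambled sequence, were not analysed here, and the cell line could not be checked against marker expression.

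Neat1 and Malat1 are neighbouring long noncoding RNAs that stay in the nucleus and are made in most cell types. Neat1 is the scaffold of paraspeckles, nuclear bodies built around RNA-binding proteins such as NONO and SFPQ, and it is made as a short and a long transcript that share 1 start. Malat1 collects in nuclear speckles, where splicing factors gather, and a small RNA (mascRNA) is cut from its 3′ end. Both genes are read from the minus strand, so transcription starts at the higher coordinate of each. DNase I cuts open chromatin, a run of cuts marks a DHS site, and a short stretch with few cuts inside one is called a footprint, where bound protein shields the DNA.

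The start of Malat1 lay in a DHS site with strong footprints, so its promoter is shown. The sequence is RefSeq's for build GRCm38.p6 (chr19:5802623-5802922, minus strand, read 5′ to 3′ along the gene, 250 bases before the start and 50 after it), and capitals mark TGACG, the core of the cyclic AMP response element, or its reverse complement CGTCA. 1 of the 2 genes had an entry, Malat1.
Malat1 promoter: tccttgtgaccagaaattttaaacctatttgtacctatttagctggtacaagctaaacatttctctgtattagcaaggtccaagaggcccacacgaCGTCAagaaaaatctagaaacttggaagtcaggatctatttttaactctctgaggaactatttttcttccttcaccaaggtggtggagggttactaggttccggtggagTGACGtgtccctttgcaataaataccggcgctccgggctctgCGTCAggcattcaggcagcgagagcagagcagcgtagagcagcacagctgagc
The core TGACG occurred 3 times, beginning 154, 45 and 3 bases before the start, 1 time on the gene's own strand and 2 times on the other. At least 1 TGACG on either strand was present in 20.8% of all 32851 promoters of the same length, so 1 match of these 5 letters is common. The share of promoters with 3 matches or more was not counted. On both strands, the window held no match to the full element TGACGTCA (1.79% of promoters), to the AP-1 motif TGANTCA (7.81%), to the C/EBP motif TTGCNNAA (10.8%), to the glucocorticoid receptor palindrome (0.475%), to the TATA box TATAAA (13.6%), to CCAAT (37.4%) or to the GC box GGGCGG (35.7%). TGACG is part of TGACGTCA, and the other motifs were searched separately. These letters were not placed on the mm9 footprints.

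Open chromatin covered the 5′ part of Neat1 without a large break and nearly left out its 3′ part. Sites covered 11123 bp of the 20801 bp of Neat1 (53.5%). In the 5′ 50% of the gene the share was 98.4%, and in the 3′ 50% it was 8.54%. In steps of 2000 bp from the start, the first 4 steps were covered at 100%, the fifth at 94.8% and the sixth at 47.3%, and the next 3 were at 0%. The longest stretch without a site within Neat1 was 6821 bp, and the longest of the locus, 8583 bp, lay between the 2 sites farthest from Neat1. A single site, chr19:5836635-5849786, accounted for 8866 bp of the Neat1 cover. At 13152 bp it was the widest site of the list, and 4286 bp of it lay upstream of the start. Another site of 849 bp began 61 bp beyond its upstream end, and a site of 1369 bp ended 105 bp from its downstream end.

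**Figure D1:**
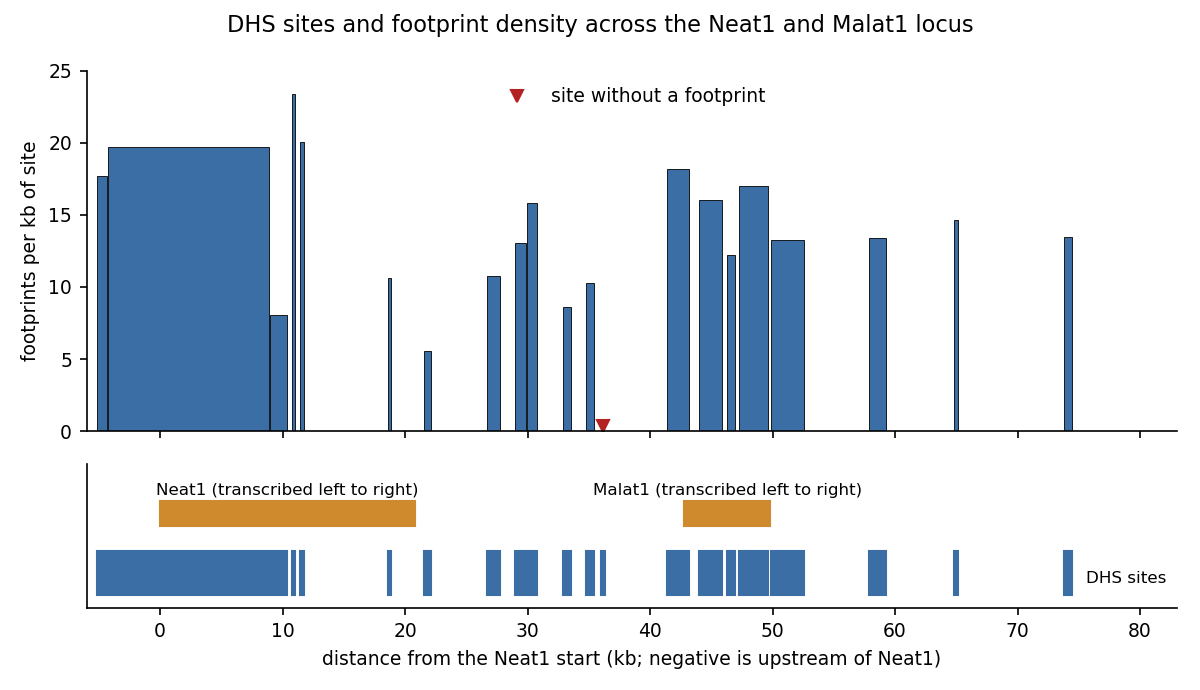
Footprints per kb of site (top, bar width is the site's width) and the sites beside the 2 genes (bottom), against distance from the Neat1 start in kb. The broad site stands at 19.7 footprints per kb across the Neat1 start, Malat1 is crossed by 4 sites, and 1 site between the genes holds no footprint.

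The broad Neat1 site carried 259 footprints, 48.8% of those in the locus on 40.1% of its site sequence. Of these, 168 had their centre in the gene body (18.9 per kb) and 91 upstream of the start (21.2 per kb). In the 12 full bins of 1000 bp counted from the start, the number ran from 12 to 30 with a median of 21. The coefficient of variation over these bins was 24.1%. The fullest bins were the first and second upstream of the start, with 29 and 30 footprints. Downstream, the number was 21 in the first bin, 16 and 17 in the next 2, and 20 to 25 in the 5 that followed. The 866 bp at the site's downstream end held 2 footprints, and the outermost 286 bp upstream held 0. Footprints ran through most of the site, in the transcribed part as well as upstream of it, and thinned out at its ends: the first footprint lay 796 bp from the downstream edge and the last 873 bp from the upstream edge.

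Footprint strength differed between the upstream part and the gene body. Each footprint carries a score, the authors' own value, which is negative throughout and was read as stronger when lower. The scale of the score is not stated. The median, -7.54 and -6.39 in the second and first bins upstream, was -6.79 over all footprints upstream of the Neat1 start and -4.86 in the part of the site that lies in the gene, beside -4.38 over all finite scores of the list. A score below -10, a limit chosen after the values were seen, was held by 26 of the 91 upstream footprints (28.6%) and by 0 of the 168 in the gene body, where the lowest score was -9.89. The split rests on the approximate Neat1 start, and other positions of the start were not tested. The footprint chr19:5845494-5845520, with a score of -11.2, spans that start and is centred 7 bp upstream of it. Over the whole list 2.95% of finite scores were below -10. The number of cuts along the site is unknown, so better protection upstream and more cuts there cannot be told apart.

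The 26 strong footprints upstream of Neat1 fell into 3 groups when neighbours 500 bp or less apart were joined, a distance also chosen after the values were seen. The first group, chr19:5845494-5845927, lay over the start and the 427 bp before it. It held 10 strong footprints among 12, and its lowest scores were -18.2 at chr19:5845716-5845736 and -18.2 at chr19:5845603-5845626. The second group, chr19:5846605-5847159, lay 1105 to 1659 bp upstream, with 9 strong footprints among 21 and a lowest score of -15.3. The third, chr19:5848245-5848661, lay 2745 to 3161 bp upstream, with 7 strong footprints among 13. It included the strongest finite footprint of the locus, chr19:5848350-5848378, at -18.9. That score ranked 1060 among the 328580 finite scores of the list. In the 500 bp before the Neat1 start 10 of 14 footprints were below -10 (median -11.9), and in the 500 bp after it 0 of 11 were (median -4.89). These counts also rest on the approximate start.

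**Figure D2:**
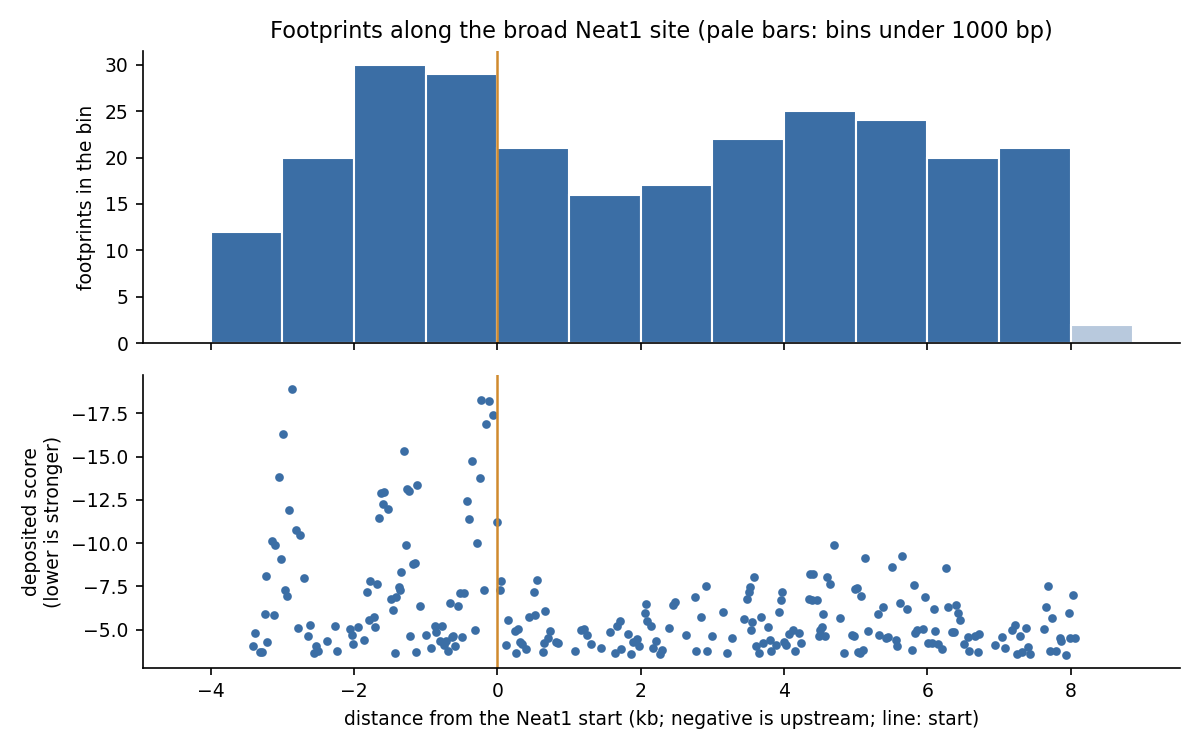
Footprints in the broad Neat1 site per bin of 1000 bp (top) and the deposited score of each footprint (bottom, stronger upward), against distance from the Neat1 start in kb, with the approximate start as a line. Numbers stay between 12 and 30 in full bins on both sides of the start, while scores below -10 are found in 3 upstream groups and 0 times in the gene body.

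Beyond the broad site, Neat1 held separate sites. There were 4 of them in the gene, 3 of these in its 3′ 50%, with 27 footprints in 2257 bp (12.0 per kb). The site of 1369 bp next to the broad one had 11 footprints, 8.04 per kb. A pair of narrow sites followed, chr19:5834517-5834773 of 257 bp with 6 footprints and chr19:5833747-5834095 of 349 bp with 7. At 23.3 and 20.1 per kb they were the densest sites of the locus, ahead of the broad site at 19.7, and footprints covered 44.7% and 40.4% of their length. Their median scores, -4.25 and -4.41, were close to that of the whole list. The last, chr19:5826644-5826925 of 282 bp, had 3 footprints. Across the locus 5 sites were under 400 bp, and 3 of these held 5 or more footprints. In the whole list 0.175% of the 35342 sites under 400 bp did so, and 8.94% held any footprint, beside 4 of the 5 in the locus.

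Malat1 was covered by several sites, none as wide as the broad Neat1 site, and a larger share of it was covered than of Neat1. Sites covered 5307 bp of its 7001 bp (75.8%), 64.5% in the 5′ 50% and 87.1% in the 3′ 50%, so the thinner cover was on the side of the start, the opposite of Neat1. From 3′ to 5′ the 4 sites were chr19:5795842-5798249 with 41 footprints, chr19:5798558-5799211 with 8, chr19:5799654-5801525 with 30 and chr19:5802328-5804145 with 33. Their densities were 17.0, 12.2, 16.0 and 18.2 per kb. The breaks between them measured 308, 442 and 802 bp, the last falling mostly in the first kb of the gene, of which 37.3% was covered. No Malat1 site reached 5000 bp; the widest measured 2408 bp. A further site of 2639 bp, chr19:5792978-5795616 with 35 footprints, lay just beyond the 3′ end, 225 bp from the first Malat1 site.

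Strong footprints of Malat1 also lay at its start. The site over the start had a median score of -5.59, and the 3 sites within the gene had medians of -4.59, -4.42 and -4.13 from 5′ to 3′. All 5 Malat1 footprints below -10 were in the site over the start, within 196 bp, chr19:5802648-5802843. That stretch reached from 52 bp after the start to 143 bp before it and held 7 footprints in all. The 4 Malat1 sites together held 112 footprints. Within the gene itself 2 of 83 footprints were below -10 (2.41%), a share no higher than the 2.95% of finite scores over the whole list. The strongest, chr19:5802757-5802773, had a score of -15.5, and the next 2, chr19:5802814-5802843 and chr19:5802686-5802707, had -11.2 and -11.1. In the site of 2408 bp at the 3′ end the lowest score was -5.62. When only the stronger 50% of all footprints were kept, the density of that site fell from 17.0 to 5.81 per kb, while the broad Neat1 site went from 19.7 to 13.8 per kb.

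Sites wholly between the genes held fewer footprints per kb than the Malat1 sites (16.6 pooled), but more than the whole list (4.08). The 7 sites that lay wholly between Malat1 and Neat1 had widths of 278 to 1025 bp and held 51 footprints in 4814 bp (10.6 per kb). Among them was the site without a footprint, chr19:5809213-5809490 of 278 bp. The whole stretch between the genes, which includes most of the site over the Malat1 start, had 12.8 footprints per kb of site. Across the locus 20 of 21 sites held a footprint, and 45.4% of all sites of the list did. That comparison is not matched for width, as the median site measured 849 bp in the locus and 532 bp in the list. At 1000 bp or more but under 5000 bp, 7 of 7 locus sites held a footprint, and so did 14175 of 14919 in the list. A density of 10 or more per kb, a limit chosen after the values were seen, was found in 17 of the 21 sites and in 7.07% of all sites. Wide sites reach such a density more often than narrow ones. Of the 7 sites of the locus that measured 1000 bp or more but under 5000 bp, 6 reached 10 per kb, and 30.9% of the 14919 sites of that width in the list did. The nearest sites outside the window were 27008 bp away, with 9 footprints, and 24319 bp away, with 6. The usual spacing of sites in the list was not measured, so these distances are given as a description only.

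The broad Neat1 site was then set beside the 40 other sites of 5000 bp or more. The narrowest site inside that limit measured 5019 bp with 47 footprints, and the widest outside it 4981 bp with 144. The Neat1 site ranked 1 of 41 in width and in footprint number and 2 in density. The others had a median of 58.5 footprints (range 1 to 172) and of 10.1 per kb (interquartile range 7.64 to 13.1), and the site on chromosome 17, chr17:39979772-39985950, had 27.8 per kb. In this width class 53.7% of sites reached 10 per kb. The 3 sites nearest in width had far fewer footprints: 151 in 11329 bp on chromosome 10 (13.3 per kb), 97 in 11157 bp on chromosome 7 (8.69 per kb) and 16 in 10356 bp on chromosome 16 (1.54 per kb). Footprints covered 32.4% of the Neat1 site, which ranked 3, beside a median of 18.9% in the others. Its median score of -5.06 ranked 6, where the others had a median of -4.23. Scores below -10 made up 10.0% of its footprints. Among finite scores, that share was higher in 6 of the 40 others and 0 in 21 of them. Footprints at -Inf are left out of it, and these counts depend on that choice. All 259 footprints of the Neat1 site had finite scores. The site chrX:166441426-166447140 held 85 footprints but 80 finite scores, with a share of 8.75%.

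**Figure D3:**
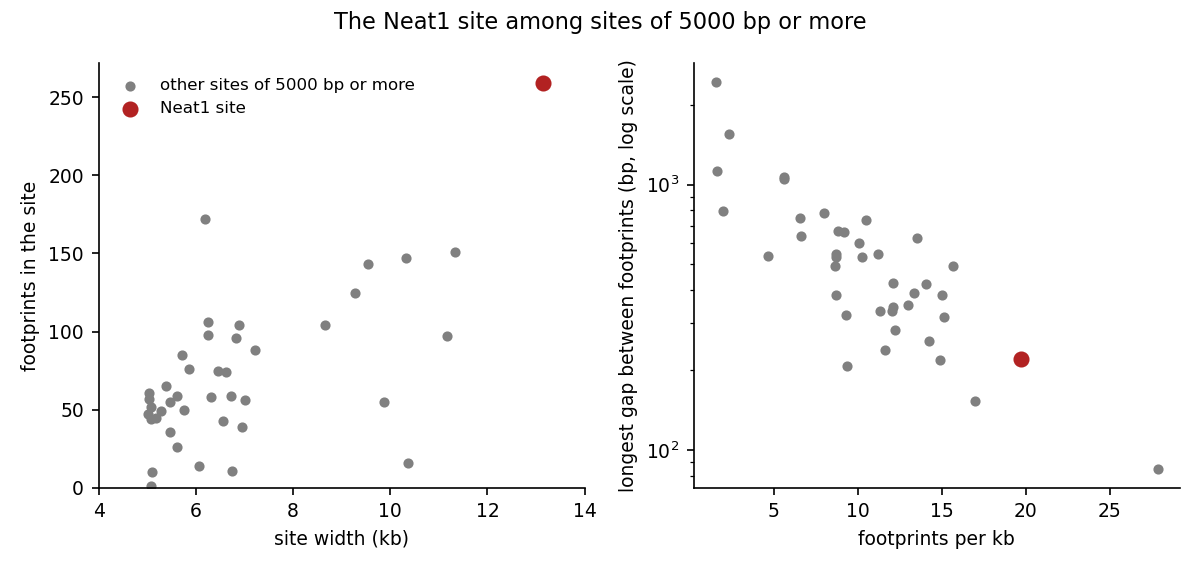
Sites of 5000 bp or more: footprints against width in kb (left), and the longest gap between footprints (bp, log scale) against footprints per kb (right). The Neat1 site (large point) has 259 footprints in 13152 bp, and its longest gap is 219 bp.

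Gaps between neighbouring footprints were short in the broad Neat1 site. The median of its 258 gaps was 16.5 bp, which ranked 2 among the broad sites, beside a median over the others of 31 bp. Gaps under 10 bp made up 32.9%, against 18.3% of the 2709 gaps pooled over the others and 19.4% of the 108 gaps in the Malat1 sites. Site by site, the Neat1 share of such gaps ranked 3 among the broad sites. Gaps over 100 bp made up 5.04% in the Neat1 site, 5.56% in the Malat1 sites and 15.5% in the other broad sites. The longest stretches without a footprint between 2 footprints of the Neat1 site both measured 219 bp, 861 to 1080 bp and 6729 to 6948 bp after the start. This was 1.67% of the site's width, and in the others the longest gap took a median of 7.88%. In bp the longest gap of the Neat1 site ranked 5 among the broad sites, counted from the shortest. A denser site has shorter gaps, so gaps and density are not separate lines of evidence.

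**Figure D4:**
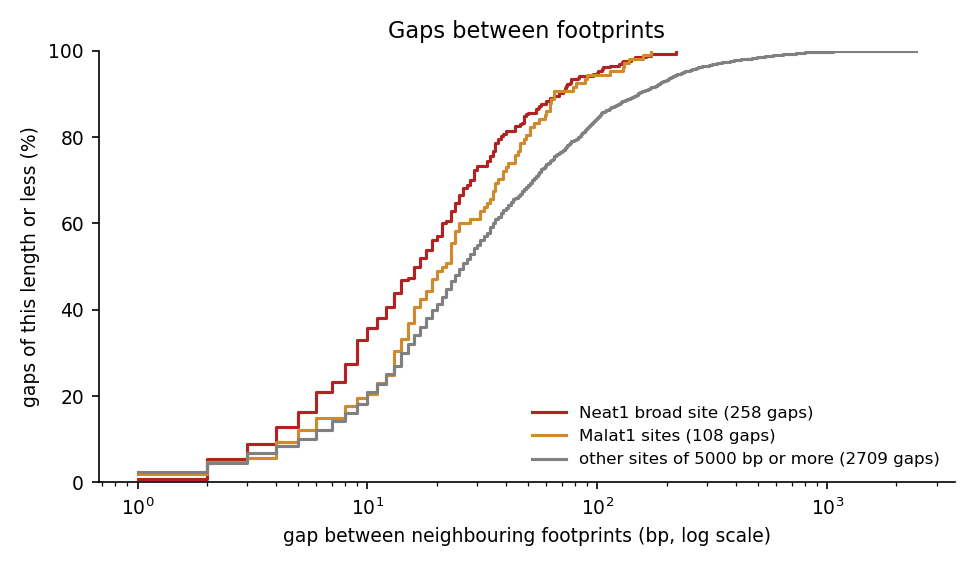
Cumulative share of gaps between neighbouring footprints by length (bp, log scale) in the broad Neat1 site, the 4 Malat1 sites and the other sites of 5000 bp or more. The share of gaps under 10 bp is largest in the Neat1 site, at 32.9%. Its curve ends at 219 bp, that of the Malat1 sites at 171 bp and that of the other broad sites at 2429 bp.

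Footprints of the locus were narrow. Their median width was 16 bp, against 21 bp over the whole list, and 15 bp in the broad Neat1 site. Among broad sites the others had a median of 20 bp. Footprints of 10 bp or less made up 19.6% of the locus and 13.8% of the list, and those at the list's limit of 30 bp made up 5.65% and 11.6%. The trait did not hold throughout the locus: the median was 24 bp in the 4 smaller Neat1 sites and 21.5 bp in the stretch between the genes.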

How the data were processed

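Both lists of the series were used, pooled calls by the authors from 1 DNase library, per the labels. HOMER and mm9 are named in the submitters' processing notes, with no role or version, and no source used here names the footprint caller. The site list gives positions only. The deposited footprint list adds a column headed p-value, treated as a score because all deposited values are negative and 496 are -Inf. Starts were raised by 1, assuming BED form. Footprints belonged to a site at 1 bp of overlap or more and to a stretch by their centre. Those at -Inf (1 in the locus) count in numbers and gaps but not in scores. Gene positions are the approximate mm9 positions that define the locus, and the GRCm38.p6 RefSeq table gave only the promoter. The members and lists were chosen with earlier results of these data known. No test was run, since there is 1 library. The analysis plan, not the definition of the locus, named sites of 2000 bp or more, the narrowest and those overlapping a gene. It also named the 3 strongest footprints, the longest gaps of the broad site, and the 3 broad sites nearest to that site in width. Other items were named after their values were seen. Footprint number, median gap and footprint cover per site were checked on 2000 simulated sites, of which 2000 were recovered. Scores, short and longest gaps, and distances to site edges were not checked in this way. Python 3.11.15, numpy 2.4.6, pandas 2.3.3 and matplotlib 3.10.9 were used.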

Additional observations from a re-analysis of the deposited data

How the results depend on the processing

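No paired analysis was possible because the lists are pooled calls from 1 library, and for the same reason no replicate could be left out. Of 19 alternative values for 8 results, 10 counted as unchanged and 9 as moved. Footprint numbers and densities counted as unchanged within 1.5 times and covers within their 95% Wilson interval, whereas any change in a rank, median gap or coefficient of variation counted as moved. That interval counts each base as independent, although the cover comes from a few unbroken sites. It served only as a cut-off and does not measure the uncertainty of the cover. With the stronger 50% of footprints the locus held 338 footprints, the density of the widest Malat1 site was 5.81 per kb and the median gap of the broad Neat1 site was 21 bp, as fewer footprints remain. Merging footprints 2 bp or less apart gave a median gap of 18 bp. The density rank of the broad Neat1 site was 2 under both, but 3 among the 99 sites of 4000 bp or more and 6 among the 334 of 3000 bp or more. Extending the Malat1 positions by 500 bp at each end gave a cover of 77.8%. The coefficient of variation over bins was 39.8% at 500 bp and 22.6% at 2000 bp. Unknown read depth limits all comparisons of footprint number and score.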

Other observations

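A site outside both genes had the lowest median score of the locus. The site chr19:5786275-5787617, 5360 bp before the site at the 3′ flank of Malat1, measured 1343 bp and held 18 footprints with a median score of -7.13, below the -5.06 of the broad Neat1 site. It held 2 footprints below -10. The outermost site upstream of Neat1, chr19:5849848-5850696, had 15 footprints with a median of -5.38 and 1 below -10. The single footprint of the locus at -Inf, chr19:5794404-5794417 of 14 bp, lay in the site at the 3′ flank of Malat1.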
